A study of Mus musculus with 2 samples.

Results

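S100 proteins are small calcium sensors, and 10 genes of the family were followed across cerebellar breast tumors in mice: S100a1, S100a4, S100a6, S100a8, S100a9, S100a10, S100a11, S100a13, S100a14 and S100a16. They were chosen by name, with earlier results of these data known. All 10 of them were among the 19465 genes counted in both matrices. The data came from 2 tumor-bearing cerebella, 1 section of 5 µm each, and both were labelled genotype HP, organoid B6-HP and untreated. HP stands for mouse mammary tumor organoids with a human HER2 transgene carrying V777L, driven by the actin promoter behind a lox-STOP-lox cassette, and with PIK3CA H1047R. The parent tumors had been started by Cre adenovirus in the mammary gland, and the organoids were labelled with luciferase and selected as clones before stereotactic injection into the cerebellum of syngeneic C57BL/6 mice. The title of section 1 names its organoid HP-F1 and that of section 2 HP-B6, although the cell line field is the same for both. The labels give neither age, sex nor time after injection for these 2 animals.

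In S100 proteins a pair of EF-hand loops binds calcium and opens a hydrophobic surface that takes up partner proteins. Inside cells the partners include annexins, the giant scaffold protein AHNAK and nonmuscle myosin, and some members are secreted and act as alarm signals at the receptors RAGE (Ager) and TLR4. S100A6 (calcyclin), S100A10 (p11) and S100A11 (calgizzarin) work with annexins at membranes. S100A10 has lost calcium binding and forms a fixed complex with annexin A2. S100A4 (metastasin, or fibroblast-specific protein) binds the myosin heavy chain MYH9. S100A8 and S100A9 pair up as calprotectin, which is abundant in neutrophils and monocytes. S100A14 is mainly epithelial, S100A1 is best known for calcium handling in muscle and also occurs in brain, S100A13 takes part in the release of FGF1 and interleukin 1 alpha, and S100A16 is broadly expressed and found in astrocytes.

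All 10 members lie on mouse chromosome 3 (build GRCm38, mm10, RefSeq positions). S100a1, S100a13, S100a14, S100a16, S100a4, S100a6, S100a8 and S100a9 follow each other, in this order, from base 90511034 to base 90695721. S100a11 (93520496 to 93526288) and S100a10 (93555117 to 93564645) lie together farther along. S100a1 and S100a13 are on opposite strands and share 98 bases at their starts. RefSeq promoters, running from 250 bases before a start to 50 after it, were at hand for 8 of 10 members. Those of S100a6 and S100a11 are shown because both genes were far higher in tumor than in neural tissue of both sections, and that of S100a4 because its level separated the sections. All 3 are on the plus strand and printed 5′ to 3′, with capitals marking AP-1 matches (TGANTCA, either strand).
S100a6 promoter, chr3:90612644-90612943: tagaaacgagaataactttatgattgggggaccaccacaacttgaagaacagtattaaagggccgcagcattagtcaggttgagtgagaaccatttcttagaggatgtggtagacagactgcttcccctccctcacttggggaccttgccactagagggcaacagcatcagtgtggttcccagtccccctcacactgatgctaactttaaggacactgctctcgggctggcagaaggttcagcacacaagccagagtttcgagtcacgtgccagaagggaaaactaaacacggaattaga
S100a11 promoter, chr3:93520246-93520545: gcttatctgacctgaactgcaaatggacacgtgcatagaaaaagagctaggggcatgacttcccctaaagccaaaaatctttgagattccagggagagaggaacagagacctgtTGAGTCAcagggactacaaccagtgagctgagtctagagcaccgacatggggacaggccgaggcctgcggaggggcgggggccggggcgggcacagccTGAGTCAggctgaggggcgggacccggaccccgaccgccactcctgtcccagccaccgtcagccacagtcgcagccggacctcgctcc
S100a4 promoter, chr3:90603520-90603819: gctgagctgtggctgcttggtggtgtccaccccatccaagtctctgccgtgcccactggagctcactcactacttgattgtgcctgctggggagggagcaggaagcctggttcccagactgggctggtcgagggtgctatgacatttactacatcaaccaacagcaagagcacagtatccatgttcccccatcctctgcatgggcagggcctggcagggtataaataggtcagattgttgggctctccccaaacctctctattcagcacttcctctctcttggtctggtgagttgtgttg
The S100a11 window held 2 AP-1 matches, and those of S100a6 and S100a4 held 0. Among the other members 1 match lay at the second start of S100a16. Of all 32851 promoters of the table, 7.81% held at least 1. The GC box GGGCGG, searched on both strands like the others, occurred 3 times in the S100a11 window, 0 times in those of S100a6 and S100a4 and in 35.7% of all promoters. A TATAAA box was in the windows of S100a4, S100a8 and S100a9 and in 13.6% of all promoters. These matches describe the letters only.

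The assay, Visium CytAssist for fixed tissue, hybridizes probes to mouse transcripts and counts them as UMIs (single captured molecules) on an array of barcoded spots, each of which can hold several cells. Section 1 had 3406 spots under tissue with 63986887 UMIs, and section 2 had 4017 spots with 71878333 UMIs. Spots were divided by their share of neuronal and myelin transcripts. Connected patches of low share formed the tumor, with 763 spots in section 1 and 825 spots in section 2. Distance was counted in rings of spots. Tumor more than 3 rings from the border was called the tumor core, the 3 rings on either side were the tumor-side edge and the neural-side edge, and neural spots beyond 6 rings formed the neural region. UMIs were summed into 8 libraries, 1 per region and section, of 3570093 to 32204840 UMIs, and levels are CPM, UMIs per 1000000 UMIs of a library after TMM scaling. The median core spot held 56775 and 42238 UMIs and the median neural spot 7250 and 9494, so these levels are shares of the RNA and not amounts per area.

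The tumors of the 2 sections differed in their markers. The summed level of 10 epithelial markers, which mammary carcinoma should hold, was 50.2 in the core of section 1 and 14751 in that of section 2. Epcam stood at 7.08 and 2218, and Krt7 at 3.10 and 4785. The sum of 9 fibroblast markers was 59334 in the core of section 1 and 752 in that of section 2. The tumor of section 1 therefore held almost none of the epithelial transcripts its label calls for, and every member is given for each section. In the neural region, neuronal and myelin markers summed to 20439 and 19159.7. Regions of a section share 1 animal, so section entered the fits as a block, and with 2 sections no difference between sections can be tested.

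S100a6, S100a11, S100a10 and S100a8 were higher in the tumor core than in the neural region, and no member was lower by the test. Genes were called changed at an edgeR quasi-likelihood adjusted p (Benjamini-Hochberg over 19162 genes tested) under 0.05 with a log2 fold change beyond 1. By this rule 4 of 10 members were changed, all higher, where 28.3% of all genes were changed and 12.3% were higher. The median log2 fold change was 1.81 over the members and -0.15 over all genes. Since the members were chosen with earlier results known, these counts and medians are a description only. Between the edge, taken as the mean of its sides, and the neural region, 5 of 10 members were changed, all higher, against 21.8% of all genes changed and 9.36% higher. The additional member was S100a9. The median log2 fold change in this comparison was 2.24 over the members and -0.10 over all genes. Together the members made up 0.529% and 0.625% of all UMIs in the core of sections 1 and 2, and 0.0770% and 0.109% in the neural region. Of the member UMIs in the cores, S100a6 alone gave 52.2% and 62.0%, and S100a4 gave 27.4% and 0.297%. Probes differ between genes, so these sums weigh the members unequally. Among all genes changed between core and neural region, 43.2% were higher, 28.1% when library size alone was used for scaling, 50.7% with RLE factors and 52.8% with DESeq2. The median of all genes was then -0.44, -0.0090 and -0.013 in place of -0.15.

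**Figure D1:**
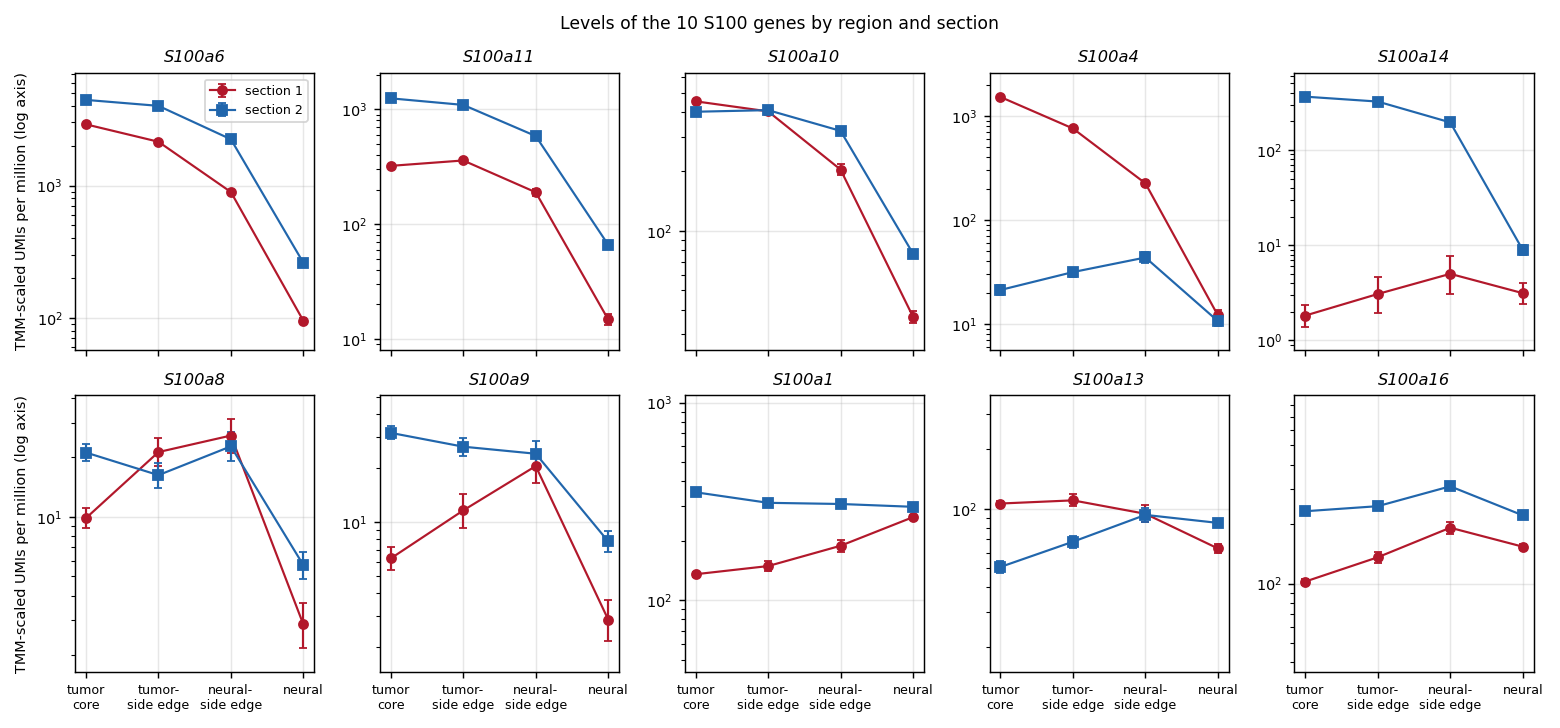
Level of each of the 10 members (TMM-scaled CPM, log axis) in the tumor core, tumor-side edge, neural-side edge and neural region of section 1 (circles) and section 2 (squares), with 95% exact Poisson intervals that cover counting error only. S100a6, S100a11 and S100a10 dropped toward the neural region in both sections, S100a4 was high only in the tumor of section 1 and S100a14 only in that of section 2.

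S100a6 was high in both tumors. In section 1 its level was 2904 in the core, 2145 on the tumor side of the edge, 895 on the neural side and 95.3 in the neural region. Section 2 gave 4443, 4006, 2240.0 and 261 in the same order. Both sections stepped down from core to neural region at each region, and the core and neural levels did not overlap. The core exceeded the neural region by a log2 fold change of 4.51 (SE 0.36, edgeR adjusted p = 0.0015), a 22.8-fold difference. Section 1 alone gave 4.92 and section 2 alone 4.08. The edge exceeded the neural region by 3.68 (SE 0.33, edgeR adjusted p = 0.0031). S100a6 stayed changed in both comparisons under all 11 other settings.

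S100a11, a partner of annexin A1, was also high in both tumors, with the higher level in section 2. Its level in section 1 was 322 in the core, 359 and 190 on the tumor and neural sides of the edge, and 14.8 in the neural region. The levels in section 2 were 1247, 1093, 586 and 66.2. Core and tumor-side edge were close to each other in both sections, and the neural region was lowest in both. The core exceeded the neural region by 4.33 on the log2 scale (SE 0.26, edgeR adjusted p = 0.0013), with 4.40 in section 1 and 4.23 in section 2. The edge exceeded it by 3.86 (SE 0.24, edgeR adjusted p = 0.0025), a call that did not hold without the block (3.71, edgeR adjusted p = 0.058).

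S100a10, the annexin A2 partner, had nearly the same core level in both tumors. Section 1 gave 453 in the core, 403 and 204 in the tumor-side and neural-side edge, and 36.8 in the neural region. Section 2 gave 401, 408, 321 and 76.8. The neural region was lowest in both sections, and higher in section 2 than in section 1. The core exceeded the neural region by a log2 fold change of 2.99 (SE 0.37, edgeR adjusted p = 0.0035), with 3.60 in section 1 and 2.38 in section 2. The edge exceeded it by 2.57 (SE 0.34, edgeR adjusted p = 0.0059).

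Markers of epithelium, fibroblasts and macrophages were summed beside these 3 genes, from core over tumor-side and neural-side edge to neural region. The epithelial sum was 50.2, 39.9, 38.9 and 23.8 in section 1 and 14751, 12001, 4897 and 207 in section 2. The fibroblast sum was 59334, 56921, 13118 and 445 in section 1 and 752, 1151, 790 and 167 in section 2. The sum of 10 macrophage markers was 12332, 15950, 16359 and 1200.5 in section 1 and 3012, 7060, 17909 and 2439.6 in section 2. Within the tumor of section 1 S100a6 correlated with the fibroblast sum at 0.30, the macrophage sum at 0.26 and the epithelial sum at 0.04. Among all cell type sums there, its highest correlation was with B and plasma cells (0.52). Its lowest was with astrocytes and Bergmann glia (-0.65). In the tumor of section 2 its correlation with the macrophage sum was -0.43. The part of these cell types in the levels of S100a6, S100a11 and S100a10 was not tested, and fewer cells of a type cannot be told apart from less RNA per cell.

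The binding partners of these members were mostly higher in tumor as well. Their list too was chosen with earlier results known, so its counts beside all genes are a description only. Of 12 listed receptors and partners, 8 were higher in the core than in the neural region and 0 were lower, where 12.3% of all genes were higher, with a median log2 fold change of 1.94 over the list and -0.15 over all genes. Anxa1, which encodes annexin A1, had a level of 597 and 5877 in the core and 7.90 and 80.7 in the neural region, a log2 fold change of 6.21 (edgeR adjusted p = 0.0013). Anxa2 stood at 977 and 1682 in the core and 27.1 and 65.2 in the neural region, a difference of 4.91 (edgeR adjusted p = 0.0013). Like S100a10, it was lowest in the neural region of both sections. Ahnak was higher by 3.99 and Myh9 by 3.22 (edgeR adjusted p = 0.0013 and 0.0023). The receptor gene Tlr4 was higher by 2.72 (edgeR adjusted p = 0.0015), from 4.19 and 5.15 in the neural region to 27.6 and 34.1 in the core. Ager, for the receptor RAGE, had levels between 3.95 and 6.86 in all 8 libraries and a log2 fold change of 0.49 (edgeR adjusted p = 0.18). In the edge against the neural region, 8 were higher and 1 was lower, where 21.8% of all genes were changed and 9.36% were higher. The lower one was Fgf1, a cargo of S100A13, at -2.54 (edgeR adjusted p = 0.041).

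**Figure D2:**
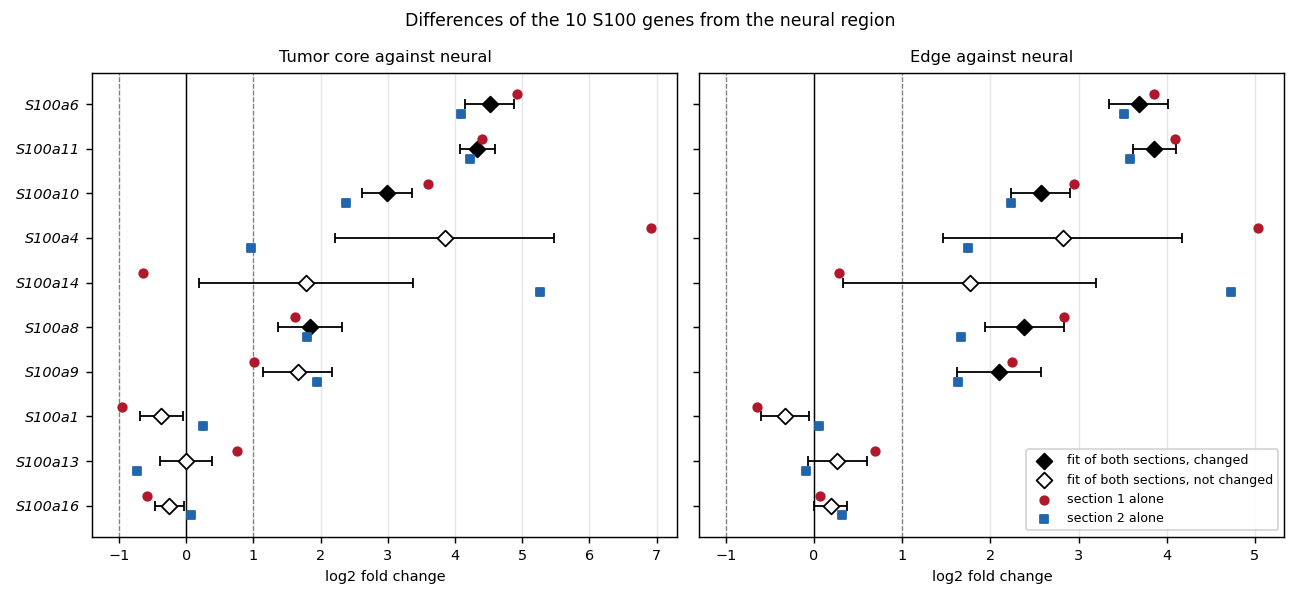
Log2 fold change of each member in the tumor core (left) and the edge (right) against the neural region: diamonds are the fit of both sections with its SE (filled where changed), circles are section 1 alone and squares section 2 alone, and dashed lines mark -1 and 1. Section values are log2 differences of CPM plus 0.5 and not fits. For low genes this draws them toward 0, so both can lie below the joint value, as for S100a8 in the core. In the core the sections lay closest for S100a11 (4.40 and 4.23) and S100a8 (1.63 and 1.80). They lay far apart there for S100a4 (6.91 and 0.96) and S100a14 (-0.65 and 5.27). In the edge S100a8 gave 2.83 and 1.67.

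S100a4 was high in the tumor of section 1 alone. In section 1 its level was 1524 in the core, 759 in the tumor-side edge, 225 in the neural-side edge and 12.1 in the neural region. In section 2 it was 21.3, 31.6, 43.6 and 10.7. The core of section 1 stood far above that of section 2, while the neural regions were alike, and in section 2 the highest level was on the neural side of the edge. The core exceeded the neural region by 6.91 on the log2 scale in section 1 and by 0.96 in section 2. The joint log2 fold change was 3.84 (SE 1.63) and did not pass the test (edgeR adjusted p = 0.12), although DESeq2 called it (3.86, adjusted p = 0.0045). The edge comparison gave 2.82 (SE 1.36, edgeR adjusted p = 0.18) and 2.82 with DESeq2 (adjusted p = 0.021). Fibroblast markers summed to 59334 in the core of section 1, where S100a4 was high, and to 752 in section 2. T cell markers summed to 232 and 9.12 in the cores of sections 1 and 2, and B and plasma cell markers to 946 and 9.57. In the tumor-side edge of section 1 the fibroblast sum was 56921, the T cell sum 149 and the B and plasma cell sum 65.3. Over the tumor spots of section 1, S100a4 correlated with these 3 sums at 0.25, 0.10 and 0.59. The part of these cells in the S100a4 level was not tested.

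S100a14 showed the opposite pattern and followed the epithelial markers. In section 2 its level was 364 in the core, 323 in the tumor-side edge, 195 in the neural-side edge and 8.97 in the neural region. In section 1 it was 1.83, 3.08, 5.01 and 3.14, from 56, 22, 21 and 66 UMIs. Section 1 was thus low in every region. The core of section 2 exceeded its neural region by 5.27 on the log2 scale, and section 1 gave -0.65. The joint value of 1.78 (SE 1.60) did not pass the test (edgeR adjusted p = 0.41), nor did that of the edge against the neural region, 1.76 (SE 1.43, edgeR adjusted p = 0.41). Krt7 in the same libraries of section 2 stood at 4785, 3698, 1504 and 53.5, and in section 1 between 2.09 and 3.10.

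**Figure D3:**
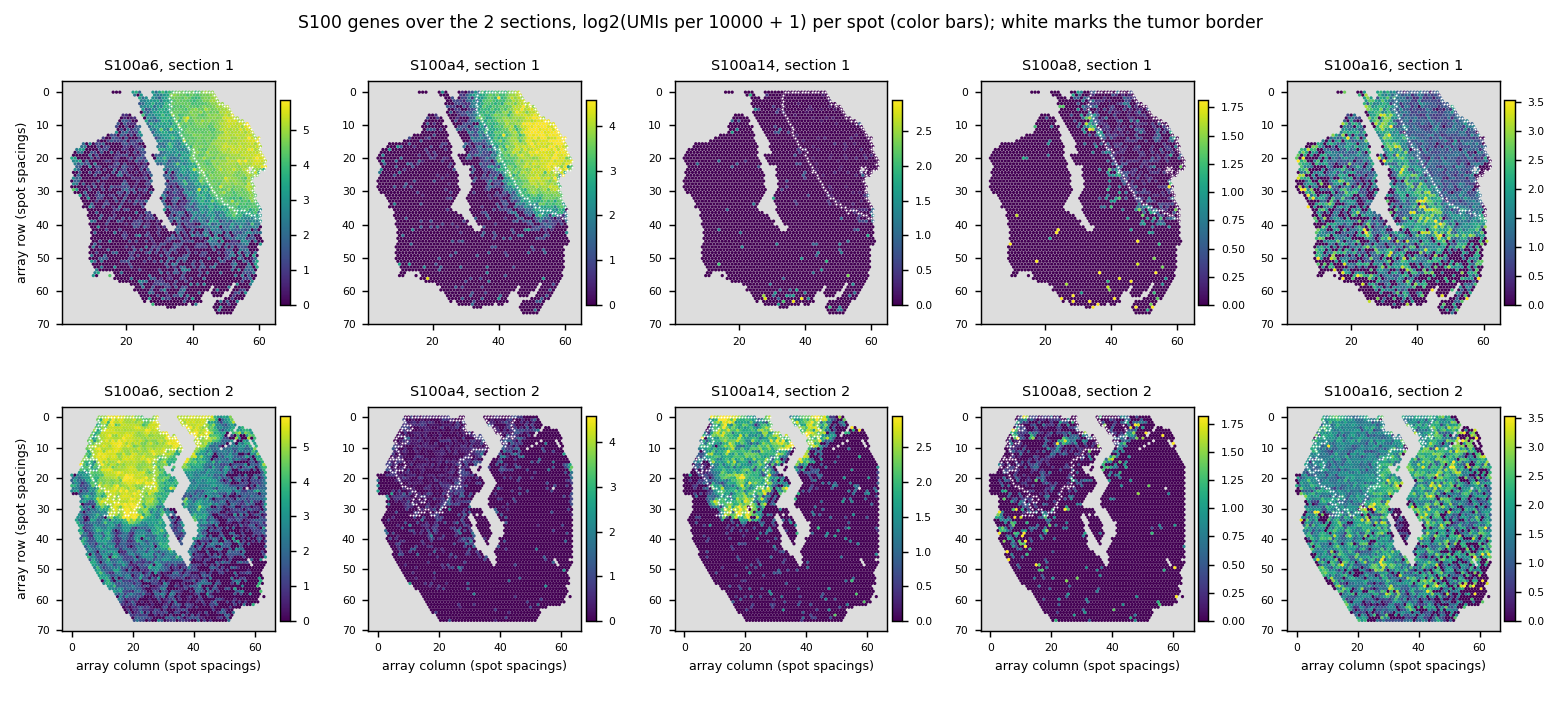
Maps of S100a6, S100a4, S100a14, S100a8 and S100a16 over the spots of section 1 (top) and section 2 (bottom), as log2(UMIs per 10000 + 1) per spot with 1 color scale per gene capped at its highest spots, axes in spot spacings, and white dots on the outermost tumor spots. S100a6 filled both tumors, S100a4 that of section 1, S100a14 that of section 2, S100a8 was sparse, and S100a16 was lower in the tumor of section 1 than in the tissue beside it.

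S100a8 and S100a9, the calprotectin genes, were low and higher in the edge than in the neural region. S100a8 in section 1 had a level of 9.86 in the core, 21.3 in the tumor-side edge, 25.8 in the neural-side edge and 2.86 in the neural region. The values of section 2 were 21.2, 16.3, 22.7 and 5.70. The neural region was lowest in both sections. The neural-side edge was highest of the regions in both, though by little. Its 95% Poisson interval held the tumor-side edge level in section 1 (21.2 to 31.1) and the core level in section 2 (19.1 to 26.9). The edge exceeded the neural region by a log2 fold change of 2.39 (SE 0.45, edgeR adjusted p = 0.015), with 2.83 in section 1 and 1.67 in section 2. This call held under all 11 other settings. The core exceeded the neural region by 1.84 (SE 0.47, edgeR adjusted p = 0.032), which was called in 8 of 11 other settings. It was lost with the largest tumor patch alone (1.59, edgeR adjusted p = 0.085), with neural spots from beyond 3 rings (1.43, 0.064) and with the edge sides summed (1.84, 0.056).

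S100a9 was 6.27 in the core of section 1, 11.6 and 20.5 in the tumor-side and neural-side edge and 2.86 in its neural region. Section 2 had 31.5, 26.3, 24.1 and 7.80. Section 1 was highest on the neural side of the edge and section 2 in the core, and the neural region was lowest in both. The edge exceeded the neural region by 2.09 (SE 0.48, edgeR adjusted p = 0.027), with 2.25 in section 1 and 1.63 in section 2. That call was lost without the block (1.95, edgeR adjusted p = 0.15), with the largest patch alone (1.80, 0.079) and with the edge sides summed (2.07, 0.060). The core comparison gave 1.66 (SE 0.51, edgeR adjusted p = 0.055) and was called in 3 of 11 other settings, with DESeq2 (1.80, adjusted p = 0.0081), another neural share cut (2.15, edgeR adjusted p = 0.011) and an edge of 2 rings (1.65, edgeR adjusted p = 0.049). These levels rest on 60 to 562 UMIs per library. For S100a9 the 95% Poisson interval was 5.41 to 7.22 in the core of section 1 and 28.9 to 34.2 in that of section 2, which covers counting error only.

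Markers of neutrophils, set beside S100a8 and S100a9, were mostly near 0, though probes differ between genes. Ly6g, which defines mouse neutrophils, was 1.47 and 1.18 in the cores of sections 1 and 2, 1.19 and 1.33 in the neural-side edge and 1.71 and 1.10 in the neural region. Mpo lay between 0.166 and 1.57 in all 8 libraries, while Csf3r reached 49.2. The collagenase gene Mmp8 reached 29.4 and 12.9 in the neural-side edge and was 2.24 and 1.31 in the neural region. Summed over 10 neutrophil markers, section 1 gave 63.1, 73.5, 86.7 and 30.5 from core to neural region and section 2 gave 939, 604, 166 and 46.4. In section 2 most of that sum was Ltf, at 913 in the core, a gene that epithelium also expresses. Monocyte markers summed to 344, 399, 288 and 50.4 in section 1 and to 85.0, 115, 153 and 54.9 in section 2. Vcan weighed most in them, at 176 and 73.8 in the cores. Plac8 was highest in the neural-side edge of both sections (138 and 22.9). Ccr2 was highest in the core of section 1 (133) and in the neural-side edge of section 2 (23.4). Macrophage (16359 and 17909), microglia (1404 and 1002) and erythrocyte markers (60.2 and 118) had their highest sums in the neural-side edge of both sections. Among the regions S100a8 was also highest there in both sections, though its intervals there held the level of another region. S100a9 was highest there in section 1 alone. Markers of cornified or squamous epithelium summed to 22.3, 20.3, 33.4 and 38.3 in section 1 and to 382, 420, 427 and 223 in section 2. In section 2 Krt5 and Krt6a gave 133 and 176 of the core sum, and Sprr1a gave 174 of the neural sum. The part of any of these cell types in S100a8 and S100a9 was not tested.

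S100a1, S100a13 and S100a16 did not pass the test in the core or the edge against the neural region. S100a1 in section 1 was 135 in the core, 149 and 189 in the edge and 263 in the neural region. In section 2 it was 352, 311, 307 and 297. Section 1 thus climbed toward the neural region and section 2 stayed level or fell slightly. The core differed from the neural region by a log2 fold change of -0.37 (SE 0.32, edgeR adjusted p = 0.39), with -0.96 in section 1 and 0.24 in section 2. The edge differed from it by -0.33 (SE 0.27, edgeR adjusted p = 0.41).

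S100a13 had levels of 106, 110.3, 94.3 and 63.0 from core to neural region in section 1. In section 2 the levels were 50.8, 68.1, 93.1 and 84.8. The order of core and neural region was opposite in the sections, and the log2 differences were 0.75 and -0.73. The joint value was 0.0027 (SE 0.39), and its sign turned under 4 other settings. The edge comparison gave 0.26 (SE 0.33, edgeR adjusted p = 0.60).

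S100a16 was highest on the neural side of the edge in both sections. Its level was 102 in the core, 136 and 192 in the tumor-side and neural-side edge and 154 in the neural region of section 1. Section 2 had 232, 246, 310.5 and 221. The core differed from the neural region by -0.25 (SE 0.22, edgeR adjusted p = 0.38) and the edge by 0.19 (SE 0.19, edgeR adjusted p = 0.50). Astrocyte and Bergmann glia markers, beside these 3 genes, summed to 1430.1, 1976, 2614 and 3717 in section 1 and to 527, 2194, 4615 and 6946 in section 2. In section 1 Aldoc gave 2114 of the neural sum. Gfap (958, 1425, 1750 and 939) and Slc1a3 (92.5, 210, 322 and 289) were highest in the neural-side edge of that section. Aqp4 and Hopx were highest in its neural region and Gdf10 in its core. In section 2 Gfap and Slc1a3 were highest in the neural region. The part of these cells in the 3 genes was not tested.

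The 3 genes read differently as UMIs per spot, since tumor spots held more UMIs of all genes together. S100a1 averaged 6.92 UMIs per core spot and 2.53 per neural spot in section 1, and 13.01 and 3.33 in section 2. S100a13 averaged 5.44 and 0.606 in section 1 and 1.88 and 0.953 in section 2. S100a16 averaged 5.24 and 1.48 in section 1 and 8.59 and 2.49 in section 2. Per spot, all 3 were higher in the core in both sections, while as a share of RNA none of them passed the test.

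No member was changed between core and edge or between the sides of the edge. In the core against edge comparison edgeR called 0 of 10 members, against 0.318% of all genes, 1 member had an unadjusted p under 0.05, and DESeq2 called 0. That member was S100a6, higher in the core by 0.83 (SE 0.26, edgeR adjusted p = 0.25), with 1.07 in section 1 and 0.57 in section 2. Between the neural and tumor sides of the edge edgeR called 0 of 10 members and 0.0% of all genes, with 2 members and 3408 genes at an unadjusted p under 0.05. These 2 members were S100a6, lower on the neural side by a log2 fold change of -1.05 (SE 0.32, edgeR adjusted p = 0.22), and S100a11, at -0.91 (SE 0.23, edgeR adjusted p = 0.20). DESeq2 called S100a6 alone of the members there (-1.13, adjusted p = 0.010).

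Distance from the border resolved the members further, in CPM of each ring bin without TMM scaling and with no test. S100a6 in section 1 went from 1973 in the 3 rings inside the border to 1049.6 in the 3 rings outside, 682 at 4 to 6 rings, 392 at 7 to 9 rings and 62.0 beyond 15 rings. In section 2 the same bins held 3628, 2224, 879.6, 539.8 and 193. S100a11 fell outward over the same bins, from 330.0 to 222, 134, 75.7 and 8.78 in section 1 and from 990.1 to 581, 279.9, 169.6 and 43.4 in section 2. S100a10 did so from 370.3 to 239.8, 144, 84.0 and 38.2 in section 1 and from 369.9 to 318, 153, 105 and 70.4 in section 2. None of these genes dropped to its far level at the border itself, and the 3 rings outside still held more than the next bins. Those 3 rings also held other transcripts that were high in the tumor. In TMM-scaled CPM, Col1a1 stood at 5942 there in section 1 and Krt7 at 1504 in section 2. That bin kept spots of either class, while bins farther out held neural spots only. The outward fall can therefore not be read as a gradient within neural tissue alone. S100a4 in section 1 climbed inward from 698 within 3 rings of the border to 1756 at 10 or more rings. In section 2 its highest bin was the 3 rings outside the border, at 43.3. S100a14 in section 2 went from 293 just inside to 194 just outside, 61.3 at 4 to 6 rings and 7.19 beyond 15 rings.

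S100a8 and S100a9 in section 1 peaked in the 3 rings outside the border, at 30.3 and 24.1. In section 2 S100a8 was between 20.9 and 24.1 from 1 to 9 rings outside and 3.11 beyond 15 rings, and S100a9 between 23.9 and 31.4 and then 3.30. Both genes were therefore near their lowest level far from the tumor in both sections. S100a13 peaked outside the tumor in both sections, at 147 (4 to 6 rings) in section 1 and 139 (7 to 9 rings) in section 2, with 62.8 and 75.7 beyond 15 rings. S100a16 in section 1 reached 376 at 4 to 6 rings, against 125 just inside the border and 153 beyond 15 rings. In section 2 it stayed between 291 and 308 from 1 to 15 rings outside, against 223 just inside and 207 beyond 15 rings. S100a1 in section 1 reached 451 at 7 to 9 rings and 291 beyond 15 rings, and in section 2 it had 402 at 10 to 15 rings and 286 beyond. Spots at 4 to 6 rings belong to no region and did not enter the comparisons.

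**Figure D4:**
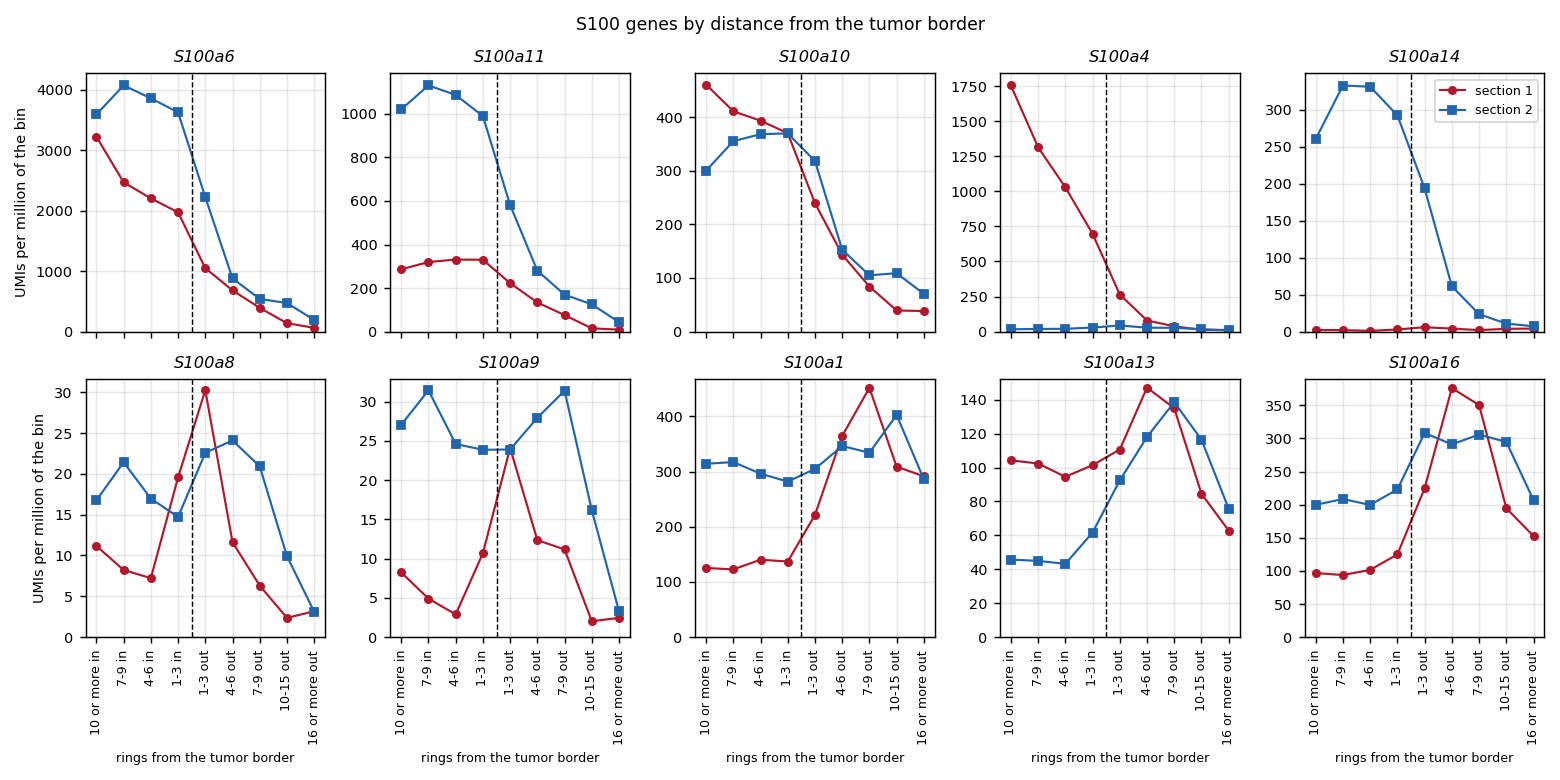
CPM of each bin against distance from the tumor border in rings of spots, inside (left of the dashed line) and outside, for each member in section 1 (circles) and section 2 (squares), each panel on its own axis from 0. S100a6, S100a11 and S100a10 fell outward over several rings, whereas S100a1, S100a8, S100a13 and S100a16 had their highest bins outside the tumor in both sections.

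Across all spots, tumor and neural together, 3 members had close companions. Likeness was the Pearson correlation of log2(UMIs per 10000 + 1) over the 3315 and 3999 spots kept, among 11966 genes, ranked by the lower value of the sections. It describes spots that share a section and differ in depth, and carries no test. Genes higher in tumor than in neural tissue can correlate over all spots through that difference alone. Likeness to the annexin genes within 1 region was not computed. S100a6 was most like Anxa1 (0.85 in both sections), Anxa2 (0.86 and 0.83) and the fibronectin gene Fn1 (0.86 and 0.82). S100a11 was most like Anxa2 (0.83 and 0.84), Emp1 (0.81 and 0.82) and S100a6 (0.81 and 0.82). S100a10 was most like Anxa2 (0.78 and 0.69), Anxa1 (0.78 and 0.68) and the tenascin gene Tnc (0.68 and 0.67). Annexin genes headed the list of all 3. By rank correlation, 1 of the 3 companions of S100a6 stayed among its closest 3, and 2 each for S100a11 and S100a10. With raw UMIs these counts were 2 for S100a6 and 1 each for S100a11 and S100a10. For S100a4 the top gene was Vim (0.78 in section 1 and 0.31 in section 2), and for the other 6 members no gene passed 0.29 in both sections, a value too weak to name a companion.

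Within the tumor alone the members paired differently in the sections. S100a4 and S100a6 correlated at 0.77 over the 763 tumor spots of section 1 and at -0.06 over the 825 of section 2. S100a6 and S100a14 correlated at 0.55 in section 2 and at -0.14 in section 1, where S100a14 was near its floor. S100a6 correlated with the epithelial sum at 0.76 in the tumor of section 2 and at 0.04 in that of section 1. S100a8 and S100a9, which form 1 protein complex, correlated at 0.28 in section 1 and 0.48 in section 2. S100a6 and S100a11, close over all spots, correlated at 0.0085 within the tumor of section 1 and at 0.36 within that of section 2. S100a10 correlated with S100a6 at 0.39 and 0.35. These values share a section and its depth and were not tested.

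Other genes of the family and other calcium sensors were counted in the same way. Of 7 further S100 genes in the matrix, 0 were called higher in the core and 2 lower, a share of changed genes close to the 28.3% of all genes, with a median log2 fold change of -0.29. S100b, the astrocyte member, had levels of 49.2, 111, 276 and 1053 from core to neural region in section 1 and of 23.7, 129, 364 and 791 in section 2. Its level was higher at each step outward in both sections, and the core was lower than the neural region by a log2 fold change of -4.68 (SE 0.45, edgeR adjusted p = 0.0021). S100a2 was called as well, at -1.10 (edgeR adjusted p = 0.046), from levels between 0.332 and 1.48 and 2 to 31 UMIs per library. S100g, a vitamin D-dependent calcium-binding protein, had levels of 1.57, 0.420, 3.10 and 1.62 in section 1 and of 9.18, 2.17, 1.99 and 1.82 in section 2. Its core level in section 2 stood above the rest, and the joint log2 fold change of 1.303 (SE 0.76) did not pass the test (edgeR adjusted p = 0.23). S100a3, S100a5, S100a7a and S100z stayed between 0.498 and 4.09 in all libraries. Of 10 neuronal EF-hand genes, such as the calbindins and calmodulins, 9 were lower in the core, with a median log2 fold change of -3.26. Of all 19162 genes tested, 28.3% were changed there and 3081 were lower. In the edge 8 of the 10 were lower, with a median of -2.29. There 21.8% of all genes were changed and 2384 were lower. Since the regions were split by neuronal and myelin transcripts, lower neuronal genes in core and edge were largely set by that rule. These counts are therefore a description only. Calb1 stood at -6.20 (edgeR adjusted p = 0.0047) in the core and was itself among the neural markers that defined the regions.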

How the data were processed

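Per the labels, Space Ranger 2.1.1 and build mm10 were used by the authors. What they deposited are whole UMI counts for every gene in each tissue spot, not normalized. CPM were computed from these counts. Spots with at least 500 UMIs and 10 genes were kept, 3315 and 3999. The arrays share a barcode set, and 3096 barcodes occurred in both sections. Each spot's share of 22 neural markers, summed with its neighbors, was split by Otsu's method, and non-neural patches of at least 50 spots were called tumor. Counts summed into 8 libraries were fitted in edgeR 4.0.16 (R 4.3.3) with TMM factors of 0.873 to 1.19, filterByExpr, glmQLFit and glmQLFTest, the section as a block and 3 residual degrees of freedom. Regions of 1 section come from the same animal, and blocking lowered the common dispersion from 0.194 to 0.0968. In simulated data for tumor against neural over 19162 genes, the fit called 4% of 2-fold and 73% of 4-fold changes, with 4 false calls. Those calls used the adjusted p alone, with 100 genes changed at each fold and a dispersion shared by all genes. In the real data calls also needed the fold change and far more genes changed, so these rates do not carry over. Intervals are exact Poisson at 95%. The members and lists were chosen with earlier results of these data known: all members are named, list genes by count, and companions are the 3 highest lower-of-section correlations among genes seen in at least 10% of spots. Probes differ between genes, so levels of different genes set side by side are a description only. Alternatives were DESeq2 1.42.0, other scaling, filters, region rules and edge widths, and each section alone. Values of a section alone are log2 differences of CPM plus 0.5, without a fit. Python 3.11.15, numpy 2.4.6, scipy 1.17.1, pandas 2.3.3 and matplotlib 3.10.9 were used.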

Additional observations from a re-analysis of the deposited data

How the results depend on the processing

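With 2 sections and 3 residual degrees of freedom, moderate differences could be missed, and section contrasts stay untested. S100a6, S100a10 and S100a11 against the neural region and S100a8 in the edge kept their direction under every alternative, and all but the S100a11 edge call without the block stayed past the threshold. The causes of the changes listed here were not tested. Without the replicate block, 3 of 10 members were changed in the edge against neural tissue (1316 genes higher and 1992 lower of all tested), and 27 genes between core and edge in place of 61. Genes changed between edge and neural tissue fell from 4178 to 2764 with the edge sides summed. Between core and edge, the count was 1139 with DESeq2, 215 with RLE factors, 327 with library size only, 1449 with the neural share cut set from its 75th percentile, 309 with an edge of 2 rings and 0 with the sides summed. That cut also called 1 member there, S100a6 (1.47, edgeR adjusted p = 0.019). Between the edge sides DESeq2 called 1 member and 988 genes. Signs turned only in values that never passed the test. For S100a13 in core against neural tissue these were -0.28 (library size only), -0.093 (neural beyond 3 rings), -0.015 (minimum of 1000 UMIs) and -0.0013 (edge sides summed). For S100a1 in core against edge they were 0.029 with DESeq2, 0.029 with RLE factors, 0.029 without the block and 0.036 with an edge of 2 rings. For S100a14 in the same comparison they were -0.11 (library size only), -0.018 (edge of 2 rings) and -0.063 (minimum of 1000 UMIs). With the cut from the percentile S100a8 turned to -0.57 and S100a9 to -0.074 between the edge sides.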

Other observations

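Single spots held few UMIs of the calprotectin genes. The 34 spots of section 1 with the most S100a8 held 17.6% of its UMIs and 2.41% of all UMIs, at most 6 in a spot, and 25 of them lay in the tumor. In section 2 the top 40 spots held 19.8% of S100a8 and 2.11% of all UMIs, at most 11 in a spot, and 35 lay in the tumor. For S100a9 the shares were 20.4% in section 1 and 19.5% in section 2. These spots were picked by the same counts, so the shares are a description with no test. They were ranked by raw UMIs, which favors tumor spots. The median core spot held 56775 and 42238 UMIs of all genes and the median neural spot 7250 and 9494. Their number in the tumor is therefore not a level scaled for depth.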
